A study of Homo sapiens with 36 samples.

Results

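RNA was compared between Jurkat cells that carried a guide RNA against RELA and Jurkat cells that carried a control guide, both harvested 7 days after the guides were delivered. Jurkat is an established human T-lymphocyte leukaemia line, and the cells used here stably expressed dCas9-VP64, a Cas9 protein without cutting activity that is fused to a transcriptional activator and raises transcription from the promoter to which its guide leads it (CRISPR activation). Every group carried dCas9-VP64, the mCherry marker and a pXPR-based lentiviral guide vector, and every group was selected with puromycin for 3 days. The sgRELA group received a single guide against RELA and the sgControl group a guide given as non-targeting. Members of the comparison were all libraries that the sample titles place on day 7, which were 12 of the 36 libraries of the series. The 2 libraries made from each RNA were added, which left 3 RNA samples of sgRELA and 3 of sgControl out of 18 RNA samples in all. The transductions were done in triplicate per the labels, so the 3 samples of a group were separate transductions of a single cell line. With 1 guide for RELA and 1 control guide, effects of higher RELA and other effects of either guide cannot be told apart, and the guide sequences were not used here.

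RELA encodes p65, a subunit of the transcription factor NF-kB with a strong transactivation domain. NF-kB dimers are held in the cytoplasm by inhibitor proteins of the IkB family, and signals from antigen receptors, cytokine receptors and pattern receptors lead to the destruction of IkB and the entry of the dimers into the nucleus. Known targets include genes of the inhibitors themselves, such as NFKBIA and TNFAIP3, which close a negative feedback loop, as well as cytokines, adhesion molecules and antigen-presentation genes. In T cells the pathway is best known for its role in activation through the T-cell receptor and in survival.

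The day 7 libraries, made by RamDA-seq (a full-length, random-primed method for very small amounts of total RNA), held between 10810114 and 13671902 counts each, and the 6 sums held between 24051818 and 26147414. Mitochondrially encoded genes took 7.33% to 7.95% of the counts of a library. Between the 2 libraries of 1 RNA the chi-square statistic per degree of freedom was 12.2 to 12.8, as large as the 11.4 to 12.2 between RNA samples of a group, and no 2 libraries held identical values. Each library started from 100 pg of RNA. The coefficient of variation between the samples of a group, from edgeR's common dispersion over 15514 genes, was 25.9% in either set of single libraries and 18.3% in the sums. All 19 of the listed Jurkat T-cell markers, among them CD3E, LCK and PTPRC, were above 1 CPM (a gene's counts relative to the size of its library, scaled with TMM factors) in both groups. Their summed level was 5670 to 5790 CPM in sgControl and 6050 to 6100 CPM in sgRELA. The B-cell markers MS4A1 and IGKC, the myeloid marker FCGR3A and the epithelial and fibroblast markers EPCAM, KRT19, COL1A2 and LUM were at 0 in all 6 samples. Other members of these lists were detected: at a mean of 1 CPM or more in sgControl were CD79A (20.8 CPM) and BLK (8.08 CPM) of 9 B-cell markers, CD68 (20.4 CPM) and AIF1 (2.57 CPM) of 12 myeloid markers, and COL1A1 (4.63 CPM) and PDGFRB (1.33 CPM) of 11 epithelial and fibroblast markers. Their sgRELA means were 57.6, 10.8, 19.8, 3.35, 2.93 and 1.97 CPM in the same order, and CD79A alone passed the test (0.0907% of all genes tested did). The part of other cell types in the results was not tested. In bulk RNA, fewer cells that express a gene and less RNA per cell cannot be told apart.

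RELA itself was measured at 26.5, 25.3 and 22.4 CPM in the 3 sgControl samples and at 126, 136 and 120 CPM in the 3 sgRELA samples. The groups lay far apart, and so did their single libraries, which reached at most 27.7 CPM in sgControl and began at 113 CPM in sgRELA. The mean was 24.7 ± 2.14 CPM (SD, n = 3) in sgControl and 127 ± 8.16 CPM (SD, n = 3) in sgRELA. RELA thus rose 5.14-fold, or by 2.36 ± 0.14 log2 units (SE), with an adjusted p of 7.89e-13 in edgeR's quasi-likelihood test. An exact two-sided permutation test of RELA alone gave p = 0.1, the smallest value that 3 samples against 3 allow. RELA lies on the minus strand of chromosome 11 (GENCODE v29, GRCh38, chr11:65653596-65663094). Its head-to-head neighbour RELA-DT, a long non-coding RNA transcribed from the opposite strand (chr11:65663086-65671716), overlaps it by 9 bases. RELA-DT was at 2.19, 2.65 and 1.5 CPM in sgControl and at 10.1, 7.19 and 5.87 CPM in sgRELA, without overlap. It rose 3.65-fold (log2 fold change 1.87 ± 0.32, adjusted p = 0.0048). Whether the authors counted by strand is not given in the sources used here, so reads where the 2 genes overlap cannot be assigned to one of them. The 250 bases before both annotated starts of RELA (RefSeq, GRCh38.p14, minus strand) are shown because they are the region in which activator guides are usually placed and because the inner window also covers the start of RELA-DT. The NF-kB consensus defined further on was not found in these letters.
RELA, chr11:65662917-65663166: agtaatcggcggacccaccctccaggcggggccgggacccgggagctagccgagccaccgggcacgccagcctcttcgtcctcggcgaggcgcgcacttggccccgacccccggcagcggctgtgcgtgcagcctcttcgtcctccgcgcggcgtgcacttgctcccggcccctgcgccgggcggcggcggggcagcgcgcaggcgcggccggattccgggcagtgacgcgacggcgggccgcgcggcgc
RELA, chr11:65663858-65664107: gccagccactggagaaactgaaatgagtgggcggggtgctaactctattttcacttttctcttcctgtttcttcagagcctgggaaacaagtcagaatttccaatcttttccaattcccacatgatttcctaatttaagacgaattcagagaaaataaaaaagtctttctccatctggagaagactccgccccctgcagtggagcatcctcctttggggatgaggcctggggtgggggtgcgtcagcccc

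Over all 27553 genes tested, 25 differed between the guides at an adjusted p under 0.05, which is 0.0907% of the genes. Of these, 18 rose (0.0653%) and 7 fell (0.0254%). The median log2 fold change of all genes was -0.0005, which the TMM scaling holds near 0. In all 25 the sums of sgRELA and sgControl did not overlap, which held for 10.4% of all genes tested. In 23 the 6 libraries of sgRELA did not overlap the 6 of sgControl either, against 0.308% of all genes, and the exceptions were SERPINA1 and RELB. The 25 genes were called from these same counts, so their separation is no independent support for the calls. The fitted log2 fold change was above 1 for 11 genes and below -1 for 6. Among the 25 were 19 protein-coding genes and 3 long non-coding RNAs, and 3 further identifiers had no position in GENCODE v29. The precision differed with the level: above 32 CPM the median standard error of a log2 fold change was 0.12 over 6661 genes. In simulated day 7 counts over 27553 genes, of which 200 were changed, 8% of changes of 0.5 log2 units were recovered, 26% of changes of 1, 68% of changes of 2 and 66% of changes of 3. In that simulation most changes of 0.5 and of 1 log2 unit were thus not recovered. The changed genes were drawn from all levels, and the depth was not varied. The counts were drawn from the spreads of the same fitted model, with 1 mean level per gene for all groups. The shares therefore hold only where that model describes the data.

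**Figure D1:**
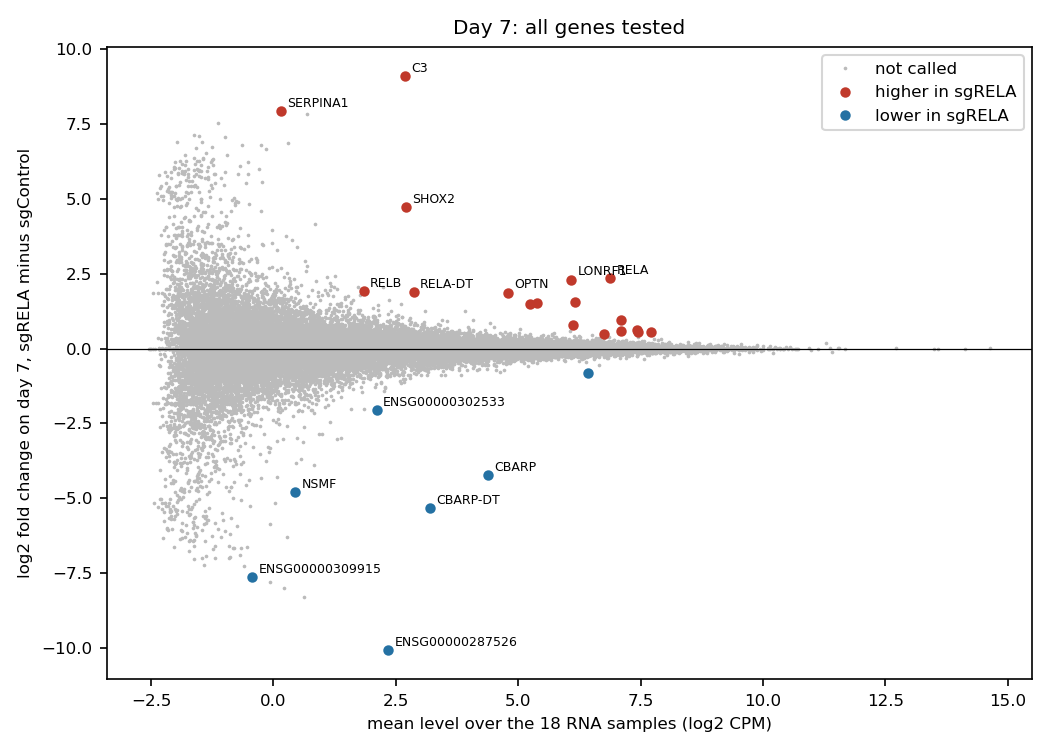
Log2 fold change on day 7 (sgRELA minus sgControl, vertical axis) against the mean level over the 18 RNA samples (log2 CPM, horizontal axis) for the 27553 genes tested; red points are the 18 genes that rose, blue points the 7 that fell, grey points the rest. The cloud narrows around 0 towards high levels, and fitted values beyond about 5 in either direction belong to genes with few or no counts in one group, where they depend on the fit and are no measure of size.

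**Figure D2:**
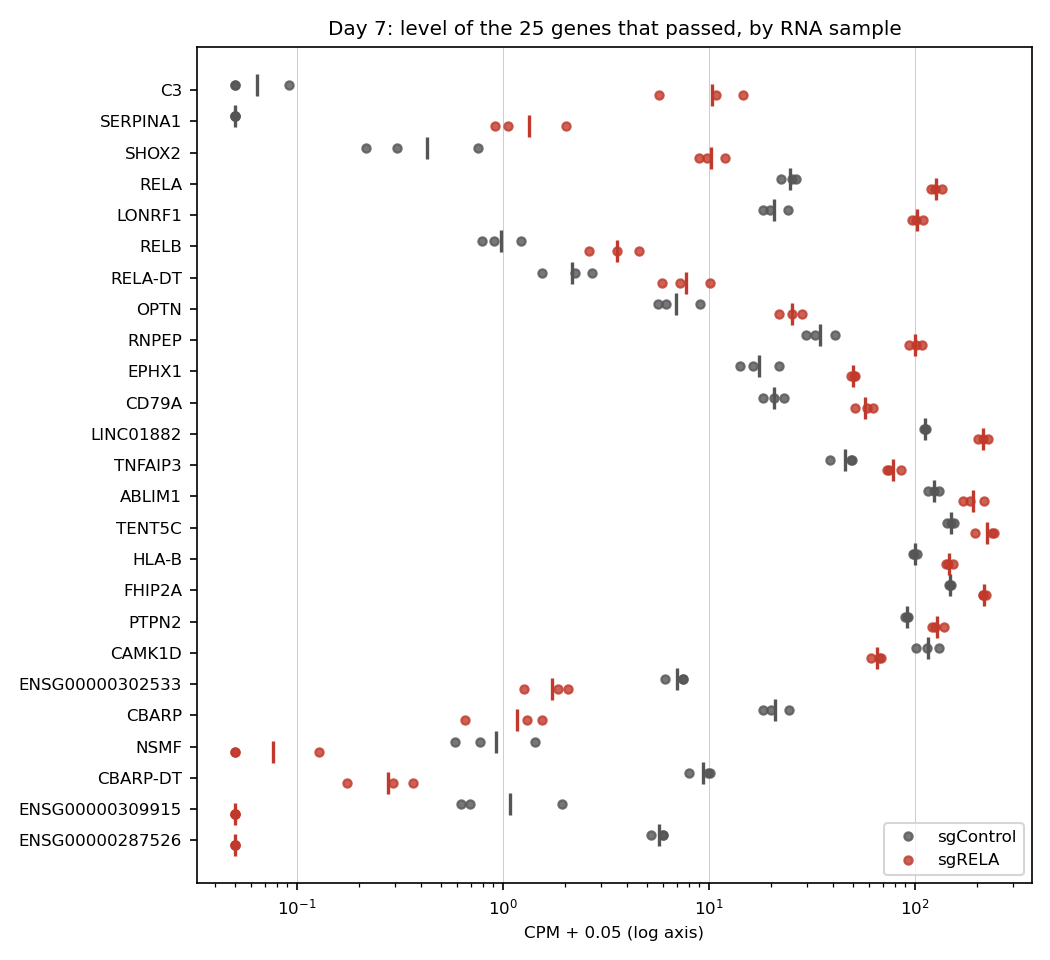
Level of the 25 genes that passed the test in each of the 6 RNA samples of day 7 (CPM plus 0.05, log axis); grey points are sgControl, red points sgRELA, and vertical ticks the mean of 3. In every row the red and the grey points are separate, from RELA at 127 CPM against 24.7 CPM to genes at 0 in all samples of one group.

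Among the 12 NF-kB subunits and IkB proteins, RELA, the target of the guide, and RELB rose, and none fell (0.0907% of all genes tested passed). With RELA included, 9 of 12 log2 fold changes were above 0 (49.7% over all genes tested), with a median of 0.23. RELB, the partner subunit of the non-canonical NF-kB pathway (chr19:45001430-45038198), had 18, 20 and 30 counts in sgControl and 90, 112 and 61 counts in sgRELA. The samples did not overlap, while single libraries did, at up to 2.25 CPM in sgControl and from 1.79 CPM in sgRELA. RELB rose by 1.93 ± 0.39 log2 units (adjusted p = 0.0405), a call that was lost in 11 of 14 alternative analyses, all with the same direction. NFKBIA, which encodes the inhibitor IkB-alpha and is a classical NF-kB target, was at 12.3, 17.5 and 13 CPM in sgControl and at 23.4, 27.6 and 25.5 CPM in sgRELA. The groups were separate, with a log2 fold change of 0.84 ± 0.19, but the adjusted p of 0.115 missed the threshold, while DESeq2 gave an adjusted p of 0.0086. NFKB1 encodes p50, the common partner of p65, and was at 49 to 59 CPM in sgControl and 59.9 to 70.9 CPM in sgRELA (log2 fold change 0.26 ± 0.13, adjusted p = 1). NFKB2, the partner of RELB, was at 8.57 to 9.19 CPM against 9.86 to 15.8 CPM (log2 fold change 0.49 ± 0.21, adjusted p = 1). REL had the opposite sign, at 86.5 to 94.5 CPM against 80.7 to 84.1 CPM (log2 fold change -0.16 ± 0.1, adjusted p = 1). Samples of these 3 subunits did not overlap between the guides, which held for 10.4% of all genes tested. Over the whole list of 12, samples of 6 genes were higher without overlap and samples of 1 were lower. NFKB1, NFKB2 and REL did not pass in either tool.

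Of the 15 tested feedback and ubiquitin regulators, only TNFAIP3 passed (0.0907% of all genes tested did), and the median of the list was 0.01. TNFAIP3 encodes A20, a ubiquitin-editing enzyme that dampens NF-kB signalling (chr6:137867188-137883312). It was at 49.3, 38.8 and 49.5 CPM in sgControl and at 73.6, 86.2 and 75 CPM in sgRELA. No sgControl sample came near the lowest sgRELA sample, and the single libraries were separate too, up to 52.8 CPM against 70.5 CPM and above. TNFAIP3 rose 1.71-fold (log2 fold change 0.77 ± 0.13, adjusted p = 0.00386). The call was lost without sgControl replicate 2 (log2 fold change 0.66), without sgRELA replicate 2 (0.69) and in either set of libraries alone (0.78 and 0.76). OPTN encodes optineurin, an autophagy receptor and ubiquitin-binding protein that can restrain NF-kB signalling (chr10:13099449-13138308). It was at 6.13, 9.03 and 5.61 CPM in sgControl and at 25.3, 21.9 and 28.5 CPM in sgRELA. Every sgRELA sample was well above every sgControl sample, and OPTN rose 3.65-fold (log2 fold change 1.87 ± 0.21, adjusted p = 2.17e-06). Of the 20 upstream kinases and adaptors, which carry signals from the receptors to IkB, 0 passed in edgeR and 0 in DESeq2. An unadjusted p under 0.05 (4.68% of all genes tested) was seen for MALT1 alone, the paracaspase downstream of antigen receptors (log2 fold change -0.38 ± 0.15, adjusted p = 0.986).

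The promoter windows of these feedback genes are printed because the NF-kB consensus, a 10-letter motif with ambiguity letters searched on both strands, has matches in them. Capitals mark the matches, each window covers the 250 bases before an annotated start, and the sequences are from RefSeq (GRCh38.p14). TNFAIP3 had a pair of matches, starting 67 and 55 bases before the annotated RefSeq start. NFKBIA had 1 match, at 81 bases. The matches in OPTN and in HLA-B, described with the antigen-presentation genes, overlap each other and read the same consensus on both strands.
TNFAIP3, chr6:137867009-137867258, plus strand: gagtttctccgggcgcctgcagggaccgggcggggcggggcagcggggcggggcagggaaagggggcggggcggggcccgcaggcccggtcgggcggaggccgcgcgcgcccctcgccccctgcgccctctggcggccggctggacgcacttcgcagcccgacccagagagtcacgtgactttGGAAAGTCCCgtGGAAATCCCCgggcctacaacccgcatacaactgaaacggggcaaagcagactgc
NFKBIA, chr14:35404750-35404999, minus strand: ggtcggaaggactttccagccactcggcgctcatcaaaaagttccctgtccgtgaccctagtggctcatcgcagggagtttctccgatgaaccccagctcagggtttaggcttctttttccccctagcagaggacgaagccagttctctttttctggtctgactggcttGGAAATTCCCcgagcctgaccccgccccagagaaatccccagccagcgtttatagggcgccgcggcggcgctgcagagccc
OPTN, chr10:13099913-13100162, plus strand: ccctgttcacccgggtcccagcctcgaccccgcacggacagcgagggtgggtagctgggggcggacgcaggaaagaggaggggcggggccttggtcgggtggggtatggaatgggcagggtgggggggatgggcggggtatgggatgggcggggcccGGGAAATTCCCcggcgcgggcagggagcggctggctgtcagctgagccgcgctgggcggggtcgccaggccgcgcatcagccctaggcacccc
HLA-B, chr6:31357180-31357429, minus strand: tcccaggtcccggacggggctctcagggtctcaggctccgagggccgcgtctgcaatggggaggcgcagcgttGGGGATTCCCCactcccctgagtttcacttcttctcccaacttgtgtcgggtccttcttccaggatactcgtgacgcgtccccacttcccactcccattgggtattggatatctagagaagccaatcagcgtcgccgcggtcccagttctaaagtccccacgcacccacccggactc

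A promoter entry was found for 19 of the 25 called genes. RELB and C3 were not among them. Of the 15 genes that rose and had an entry, 7 held the consensus in at least 1 window: EPHX1, HLA-B, OPTN, PTPN2, RELA-DT, RNPEP and TNFAIP3. Of the 4 genes that fell and had an entry, 0 held it. The share was 14.8% over the 13261 tested genes with an entry and 9.96% over all 35116 promoters of the table. The window of PTPN2 belongs to a start inside the gene. The matched windows of OPTN and RNPEP also lie inside the GENCODE bounds of their genes, as does the window of CAMK1D, which fell. These matches describe the letters of the windows only.

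A list of NF-kB targets, mainly cytokines, receptors and adhesion genes, held 33 tested genes with a median log2 fold change of 0.23. Of these, 2 rose (0.0653% of all genes tested) and 0 fell. The 2 were C3 and SERPINA1, which are not cytokine, receptor or adhesion genes. The list was chosen with earlier results of these data known. For 16 further members of this list, among them CXCL8, IL6 and IL2, too few counts were seen for a test. C3, the central component of the complement cascade (chr19:6677704-6730562), had 1, 0 and 0 counts in sgControl and 374, 267 and 135 counts in sgRELA. It went from near absence to 14.7, 10.8 and 5.66 CPM. The ratio was 766, with an exact 95% counting interval of 137 to 30300 (adjusted p = 5.04e-07). Without sgControl replicate 1, which held the single count, C3 had no count in sgControl and kept its call. SERPINA1, which encodes alpha-1-antitrypsin, an inhibitor of neutrophil elastase (chr14:94376747-94390693), had 0 counts in all 3 sgControl samples and 22, 49 and 24 counts in sgRELA. It was at least 31.2-fold higher against a floor of 3 counts over the sgControl group (adjusted p = 0.00838). Counting intervals and floors cover counting error only. TNFRSF9, the costimulatory receptor 4-1BB, had 0, 0 and 1 counts in sgControl and 44, 16 and 28 in sgRELA. The samples were separate with a ratio of 86.8 (exact 95% counting interval 15.2 to 3470), yet the adjusted p was 0.0946, while DESeq2 gave 0.0224. Of the 26 tested ligands and receptors of the TNF superfamily, to which it belongs, 0 passed in edgeR and 1 in DESeq2. On the higher side 4 had an unadjusted p under 0.05 in edgeR (2.42% of all genes tested), and on the lower side 2. In either direction the share over all genes was 4.68%.

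Among 20 tested genes of MHC class I and antigen processing, HLA-B alone passed (0.0907% of all genes tested did). HLA-B encodes a classical class I heavy chain that presents peptides to CD8 T cells. It was at 98.6, 103 and 99.2 CPM in sgControl and at 145, 142 and 153 CPM in sgRELA. All 6 libraries of sgRELA, from 137 CPM upwards, were above all 6 of sgControl, which ended at 107 CPM. HLA-B rose 1.46-fold (log2 fold change 0.55 ± 0.08, adjusted p = 0.000389), and the call was lost in 1 of 14 alternatives, the first set of libraries alone. Class I genes are close relatives of each other, and how the authors treated reads that match several of them is not given in the sources used here, so the split between them is uncertain. HLA-C, its close relative and neighbour, was at 49.8 to 53.7 CPM in sgControl and at 59.7 to 65.2 CPM in sgRELA (log2 fold change 0.25 ± 0.13, adjusted p = 1). The samples of 9 members were higher in sgRELA without overlap, where 5.24% of all genes tested were, and the median of the list was 0.13. Of the 51 tested interferon-stimulated genes 0 passed in edgeR and 0 in DESeq2, with a median of 0.07. On the higher side 6 had an unadjusted p under 0.05 in edgeR (2.42% of all genes tested), and on the lower side 2. In either direction the share over all genes was 4.68%. OAS2, an antiviral RNA sensor, had the smallest p of that list (log2 fold change 0.92 ± 0.26, adjusted p = 0.474).

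The other genes that rose had no single role in common. LONRF1, a protein with RING finger and LON domains, was at 18.4, 24.1 and 19.9 CPM in sgControl and at 96.6, 101 and 110 CPM in sgRELA. It rose as clearly as RELA itself, 4.92-fold (log2 fold change 2.3 ± 0.13, adjusted p = 4.97e-13). RNPEP, an aminopeptidase (chr1:201982372-202006147), was at 32.9, 29.7 and 40.9 CPM against 101, 93.5 and 108 CPM. Its log2 fold change was 1.54 ± 0.12 (adjusted p = 4.66e-10). EPHX1, the microsomal epoxide hydrolase that detoxifies reactive epoxides (chr1:225810092-225845563), was at 14.2, 21.9 and 16.3 CPM in sgControl and at 49.3, 51.1 and 50.6 CPM in sgRELA. The 3 sgRELA values were almost alike and all above sgControl, with a log2 fold change of 1.53 ± 0.15 (adjusted p = 1.98e-07).

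CD79A, which encodes a signalling chain of the B-cell receptor (chr19:41877120-41881372), was at 18.4, 20.6 and 23.2 CPM in sgControl and at 51.4, 62.6 and 58.7 CPM in sgRELA. It was thus present in the control cells and rose further, by a log2 fold change of 1.47 ± 0.15 (adjusted p = 4.16e-07). The remaining 8 B-cell markers summed to 8.09 to 10.1 CPM in sgControl and 8.75 to 13.8 CPM in sgRELA, with overlap. BLK made up most of this sum, at means of 8.08 CPM in sgControl and 10.8 CPM in sgRELA. The sum therefore says little about the other markers, of which MS4A1 and IGKC were at 0. SHOX2, a homeobox transcription factor of limb and heart development (chr3:158095954-158106503), had 4, 6 and 18 counts in sgControl and 302, 221 and 232 counts in sgRELA. From this low base it rose to 10.2 ± 1.52 CPM (SD, n = 3), a log2 fold change of 4.72 ± 0.54 (adjusted p = 2.86e-06). Without sgControl replicate 3, which held 18 of the sgControl counts, it was 5.56, and it was 7.29 in the first library set alone and 3.84 in the second.

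Several genes with high levels rose by less than 1 log2 unit. LINC01882, a long non-coding RNA on chromosome 18 (chr18:12739490-12776137), was at 112, 113 and 111 CPM in sgControl and at 202, 228 and 214 CPM in sgRELA. PTPN2, a phosphatase that restrains T-cell receptor and cytokine signalling (chr18:12785478-12929643), lies 9341 bases away on the same strand and was at 92.6, 92.2 and 89.6 CPM against 126, 122 and 139 CPM. The log2 fold change was 0.94 ± 0.09 for LINC01882 (adjusted p = 3.07e-08) and 0.5 ± 0.09 for PTPN2 (adjusted p = 0.0102). For both genes, every sgRELA sample was above every sgControl sample. PTPN2 was also the 1 gene that passed among 34 T-cell receptor and signalling genes (0.0907% of all genes tested did), whose median was 0.04. On chromosome 10, ABLIM1, an actin-binding LIM protein (chr10:114431113-114685003), and FHIP2A (chr10:114821744-114899832) rose together 136741 bases apart. ABLIM1 was at 124, 132 and 116 CPM in sgControl and at 216, 171 and 186 CPM in sgRELA (log2 fold change 0.63 ± 0.1, adjusted p = 0.00236). FHIP2A was at 151, 148 and 147 CPM against 214, 214 and 222 CPM (log2 fold change 0.54 ± 0.1, adjusted p = 0.0058). The non-coding RNA ENSG00000228484 between them had a log2 fold change of 1.26 ± 0.29 with an adjusted p of 0.131. TENT5C, a poly(A) polymerase that stabilises messenger RNA, was at 155, 143 and 151 CPM against 237, 196 and 243 CPM (log2 fold change 0.59 ± 0.12, adjusted p = 0.0405).

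The 7 genes that fell were led by a head-to-head pair on chromosome 19. CBARP, which encodes a regulator of voltage-gated calcium channels (chr19:1228287-1238027), was at 18.3, 20.1 and 24.6 CPM in sgControl and at 1.5, 0.609 and 1.26 CPM in sgRELA. CBARP-DT, the non-coding RNA that starts 152 bases away on the opposite strand (chr19:1238179-1239522), was at 7.95, 9.89 and 10.1 CPM against 0.315, 0.244 and 0.126 CPM. Both were close to absent in every sgRELA sample. The log2 fold change was -4.22 ± 0.32 for CBARP (adjusted p = 7.01e-10) and -5.31 ± 0.43 for CBARP-DT (adjusted p = 2.48e-09). The window before CBARP is shown because it covers the GENCODE starts of both genes (RefSeq, GRCh38.p14, minus strand), with no match to the NF-kB consensus.
CBARP, chr19:1238006-1238255: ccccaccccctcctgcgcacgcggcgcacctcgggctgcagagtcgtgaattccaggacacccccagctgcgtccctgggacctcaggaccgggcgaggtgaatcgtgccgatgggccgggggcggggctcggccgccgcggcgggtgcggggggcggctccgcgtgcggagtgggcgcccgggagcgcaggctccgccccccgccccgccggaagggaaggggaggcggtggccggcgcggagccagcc

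ENSG00000287526, a gene known here by its identifier alone, had 125, 139 and 151 counts in sgControl and 0 in all 3 sgRELA samples, at least 140-fold lower against the floor of 3 counts (adjusted p = 4.33e-09). ENSG00000309915 had 14, 15 and 48 counts against 0, 0 and 0, at least 26-fold lower (adjusted p = 0.0317). ENSG00000302533 was at 7.45, 7.45 and 6.12 CPM in sgControl and at 1.81, 2.03 and 1.22 CPM in sgRELA (log2 fold change -2.05 ± 0.36, adjusted p = 0.00592). These 3 identifiers had no position or name in the tables used. CAMK1D, a calcium- and calmodulin-dependent kinase (chr10:12349482-12835545), was at 132, 115 and 102 CPM in sgControl and at 61.2, 68.9 and 67.3 CPM in sgRELA. The groups were separate and CAMK1D fell by 0.82 ± 0.14 log2 units (adjusted p = 0.004), and the call was lost without sgControl replicate 1 (log2 fold change -0.72) and without sgRELA replicate 1 (-0.77). CAMK1D lies 263904 bases from OPTN, which changed in the opposite direction. NSMF, a synapse-to-nucleus signalling factor of neurons (chr9:137447573-137459334), had 13, 17 and 35 counts in sgControl and 2, 0 and 0 in sgRELA. The ratio was 32.9 lower in sgRELA (exact 95% counting interval 8.76 to 278, adjusted p = 0.0495).

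Several calls were lost when 1 RNA sample was left out, which also leaves fewer samples for the test. RELA-DT lost its call without sgControl replicate 3 (log2 fold change 1.67) or sgRELA replicate 1 (1.62), ABLIM1 without sgRELA replicate 1 (0.53), and FHIP2A without sgControl replicate 2 or 3 (0.54 in both). PTPN2 and TENT5C lost theirs without any sample other than sgRELA replicate 2, at log2 fold changes of 0.44 to 0.51 and 0.53 to 0.61. RELB lost its call without any sample other than sgRELA replicate 3, at 1.71 to 2.14. For ENSG00000302533 the losses came without sgRELA replicate 1 (log2 fold change -2.1) or 3 (-1.86). SERPINA1 lost its call without any 1 of the sgControl samples, in which it had no count. ENSG00000309915 lost its call without sgControl replicate 3, which held 48 of its counts, or without any sgRELA sample, all of which were at 0. NSMF lost its call without sgControl replicate 2 or 3 or any sgRELA sample, and without sgRELA replicate 1 it had no count in sgRELA. For all of these genes the direction was the same in every one of the 14 alternatives.

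Just outside the threshold on the higher side were TSC22D3, ELF3-AS1, CCNYL1, SESN3 and TNFRSF9. TSC22D3, the glucocorticoid-induced leucine zipper, had 0 counts in sgControl and 26, 14 and 4 counts in sgRELA (adjusted p = 0.0502, at least 14.5-fold higher). ELF3-AS1 had an adjusted p of 0.0529 and a log2 fold change of 1.24 ± 0.26. It overlaps RNPEP, which rose, and reads where they overlap cannot be assigned to one of them. On the lower side the nearest were ENSG00000290034, TCTE1, SERPINE2, VCAN and ENSG00000309897, with adjusted p-values from 0.155 to 0.182. SERPINE2, a secreted protease inhibitor, had a log2 fold change of -0.78 ± 0.19 and VCAN, a matrix proteoglycan, one of -0.54 ± 0.13.

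Genes near the 22 called genes with a position were examined next. Within 100 kb lay 94 other tested genes, of which 53 had a log2 fold change above 0 (49.7% over all genes tested), with a median of 0.052. Of these neighbours 0 passed in edgeR, and DESeq2 called ENSG00000228484 and ELF3-AS1. An unadjusted p under 0.05 was seen for 14 neighbours (4.68% of all genes tested), 12 of them on the higher side (2.42%). Around RNPEP lay ELF3-AS1, which overlaps it on the opposite strand, and ELF3, an epithelial transcription factor. ELF3 had 4, 5 and 0 counts in sgControl and 24, 11 and 57 counts in sgRELA (log2 fold change 3.28 ± 1.14, adjusted p = 0.92). Whether counting was by strand is not given, so reads where ELF3-AS1 and RNPEP overlap cannot be assigned to one of them. Next to C3 lay TRIP10 (log2 fold change 0.82 ± 0.31) and CD70, the ligand of CD27 (1.3 ± 0.53). Near SERPINA1 lay its relative SERPINA10 (log2 fold change 1.78 ± 0.5), near HLA-B lay HCP5 (0.59 ± 0.16, with overlapping counts) and beside LINC01882 lay PSMG2 (0.46 ± 0.16). On the lower side were ENSG00000272221 near HLA-B (log2 fold change -1.35 ± 0.5) and ENSG00000285994 inside CAMK1D (-0.89 ± 0.36). For each of these 9 genes the adjusted p in edgeR was above 0.05. A separate list of genes near RELA, not limited to 100 kb, held 25 tested genes, RELA and RELA-DT included. Of these, 20 had a log2 fold change above 0 (49.7% over all genes tested). The median of this list was 0.18 on day 7, against 0.05 on day 5 and 0 on day 6. Beyond RELA and RELA-DT 0 passed in edgeR or DESeq2 on day 7. CTSW, a cathepsin of cytotoxic lymphocytes, differed by 0.44 ± 0.12 log2 units (adjusted p = 0.346), and NEAT1, the RNA scaffold of paraspeckles, by 0.18 ± 0.06 (adjusted p = 0.92). Both had passed in edgeR on days 5 and 6 with larger differences. CTSW then had 0.78 and 0.81 (adjusted p = 0.000557 and 0.000219), and NEAT1 0.36 and 0.39 (adjusted p = 0.00271 and 0.000602).

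**Figure D3:**
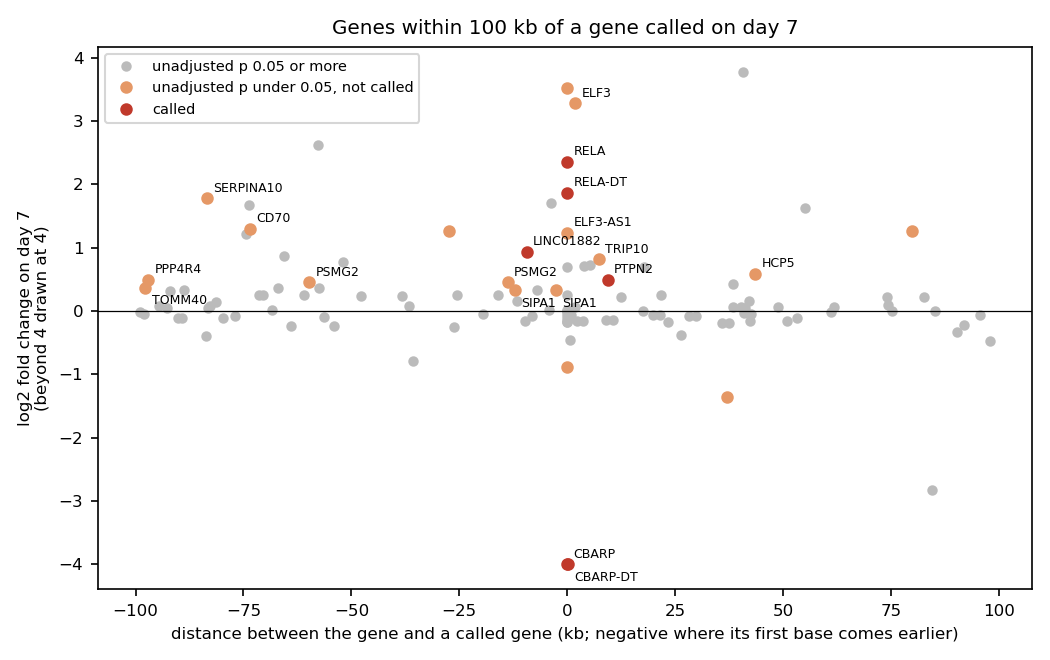
Log2 fold change on day 7 of genes within 100 kb of a called gene (vertical axis, values beyond 4 drawn at 4) against the distance to that called gene in kb (horizontal axis); red points are called genes that neighbour another called gene, orange points have an unadjusted p under 0.05 without being called, grey points the rest. A gene near several called genes is drawn once for each; the pairs RELA with RELA-DT and CBARP with CBARP-DT sit at a distance near 0, and most other points lie close to a log2 fold change of 0.

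The earlier harvests give the course of these differences. In the same fit 38 genes passed on day 5 (0.138%) and 59 on day 6 (0.214%), against 25 on day 7. Of the 25 genes of day 7, 19 also passed on day 5, 20 on day 6 and 18 on both. The exceptions that passed on day 7 alone were RELA-DT, FHIP2A, TENT5C and NSMF. In 24 of 25 the sign was the same on all 3 days, with NSMF as the exception. On day 7 the fold change was smaller than on both other days for 10 genes, larger for 10 and in between for 5. This order was not tested. It includes genes with 3 or fewer counts in a group, whose fitted values are no measure of size. It also includes differences within the standard error, such as HLA-B at 0.5, 0.55 and 0.55 with an SE of 0.08.

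RELA had its smallest difference on day 7. Its mean level in sgRELA was 294 ± 28.2 CPM on day 5, 201 ± 19.4 CPM on day 6 and 127 ± 8.16 CPM on day 7 (SD, n = 3 each). In sgControl the means were 33.3 ± 5.27, 24 ± 6.01 and 24.7 ± 2.14 CPM (SD, n = 3 each). In log2 terms the difference was 3.14 on day 5 and 3.07 on day 6 against 2.36 on day 7. The guide effect was thus 0.78 ± 0.18 log2 units smaller than on day 5 (unadjusted p = 0.000211 in edgeR, adjusted p = 0.741 over all genes). Against day 6 it was 0.71 ± 0.19 smaller (unadjusted p = 0.000651, adjusted p = 0.812). Day 7 was chosen with its weaker RELA induction already known, so these unadjusted p-values are descriptive and no independent test. Across all genes, 0 passed for a change of the guide effect from day 5 to day 7 in edgeR, where 4.74% had an unadjusted p under 0.05 and DESeq2 called 4 genes. From day 6 to day 7, where 4.87% had an unadjusted p under 0.05 and DESeq2 called 6 genes, the single gene that passed in edgeR was LINC01882, whose effect was 0.84 ± 0.12 log2 units smaller (adjusted p = 0.00363). Its level in sgRELA was 221 ± 13 CPM on day 6 and 215 ± 13 CPM on day 7, while in sgControl it was 64.4 ± 3.74 CPM on day 6 and 112 ± 0.796 CPM on day 7 (SD, n = 3 each). The smaller difference on day 7 thus went with a higher level in the control samples. The call was lost when either set of libraries was used alone.

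LONRF1, OPTN, TNFAIP3, HLA-B and PTPN2 had log2 fold changes on day 7 close to those of the earlier days: LONRF1 2.35 on day 5, 2.45 on day 6 and 2.3 on day 7, and HLA-B 0.5, 0.55 and 0.55. RELA-DT had log2 fold changes of 1.11 on day 5 and 0.93 on day 6 against 1.87 on day 7. The adjusted p of these 2 earlier values was 0.375 and 0.492, and its mean level in sgControl went from 5.89 CPM on day 5 and 5.12 CPM on day 6 to 2.12 CPM on day 7. In the other direction, 11 genes passed on days 5 and 6 and not on day 7. All 11 kept their sign on day 7, and all except NINJ1 had an unadjusted p under 0.05 (4.68% of all genes tested) and no overlap there (10.4%). NFKBIA was among them, with log2 fold changes of 1.42 and 1.3 on the earlier days against 0.84 on day 7. MYO1E, a myosin of the cell cortex, had -1.57, -1.15 and -0.43, and NINJ1, a protein of membrane rupture, -1.09, -1.02 and -0.14. MYO1E had the smallest p for a change from day 5 to day 7 (1.14 ± 0.22 log2 units, adjusted p = 0.226). A gene that passed on one day and not on another is not shown to differ between the days.

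**Figure D4:**
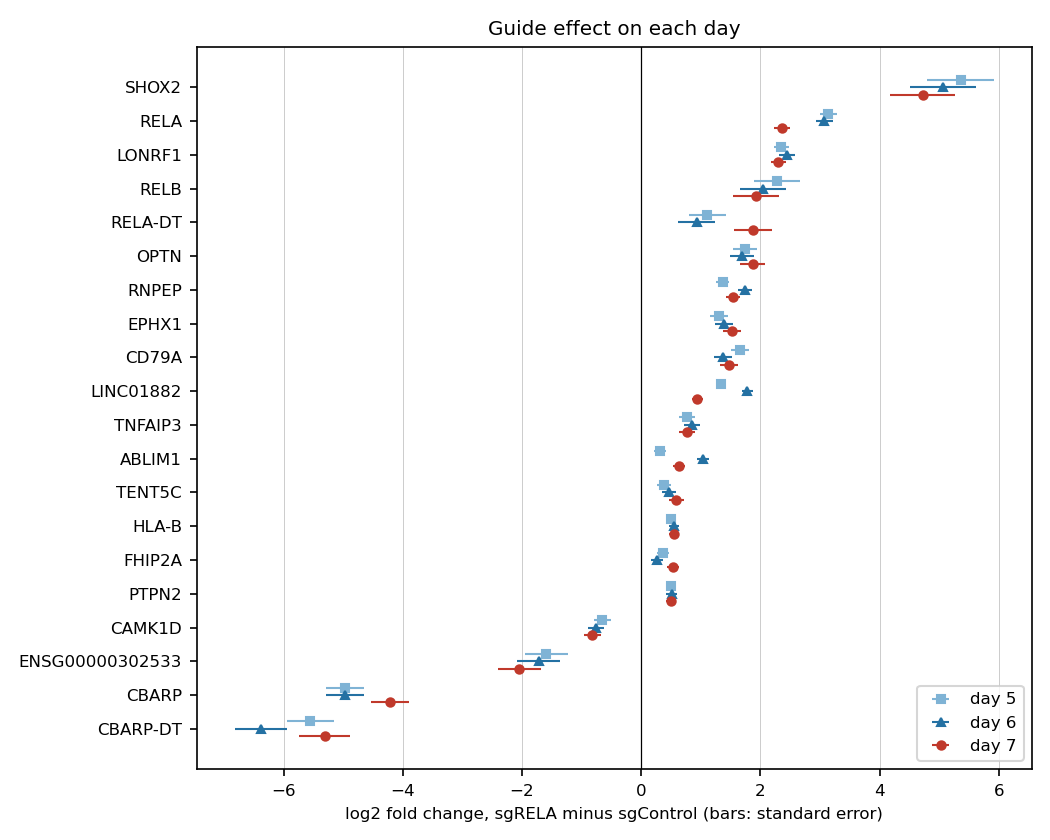
Log2 fold change of sgRELA against sgControl on day 5 (light blue squares), day 6 (dark blue triangles) and day 7 (red circles) for the 20 genes called on day 7 that had more than 3 counts in both groups; bars are standard errors of the fit, and the days have separate control samples. RELA and LINC01882 lie lowest on day 7, RELA-DT lies highest on day 7, and most other genes have their 3 symbols within or near each other's bars.

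In 12 lists of other pathways, 20 of 274 tested members had an unadjusted p under 0.05 in edgeR (4.68% of all genes tested). These 12 lists held 0 genes that passed in edgeR and 0 in DESeq2, and their medians stayed near 0. They were the BCL2 family of apoptosis regulators (17 tested, median 0.05), AP-1 and EGR early genes (27 tested, median 0.06), leukaemia transcription factors of the T lineage (22 tested, median 0), heat shock chaperones (22 tested, median 0.02) and targets of p53 (20 tested, median 0.06). The same held for the unfolded protein response (25 tested, median -0.07), glycolysis and hypoxia (27 tested, median -0.03), cholesterol synthesis (23 tested, median -0.05), antioxidant genes of NRF2 (18 tested, median 0.03), genes of G1/S and DNA replication (30 tested, median -0.05) and genes of mitosis (28 tested, median -0.01). In the leukaemia list RUNX3, a transcription factor of cytotoxic T cells, had the smallest p, at 188, 273 and 186 counts in sgControl and 411, 567 and 301 in sgRELA (log2 fold change 0.95 ± 0.25, adjusted p = 0.301). For 0 of the 15 mitochondrially encoded genes were the samples of the guides separate (10.4% of all genes tested), and the median of that list was 0. Lists of cells other than T cells were small after the filter: 8 myeloid genes were tested, 7 had a log2 fold change above 0 and the median was 0.74. The summed level of the 12 listed was 23.4 to 28.6 CPM in sgControl and 27.3 to 28.3 CPM in sgRELA, and CD68 made up most of it. S100A9, a calcium-binding protein of neutrophils and monocytes, had 0, 2 and 0 counts in sgControl and 30, 13 and 24 in sgRELA, a ratio of 33.1 (exact 95% counting interval 8.8 to 279), with an adjusted p of 0.992.

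**Figure D5:**
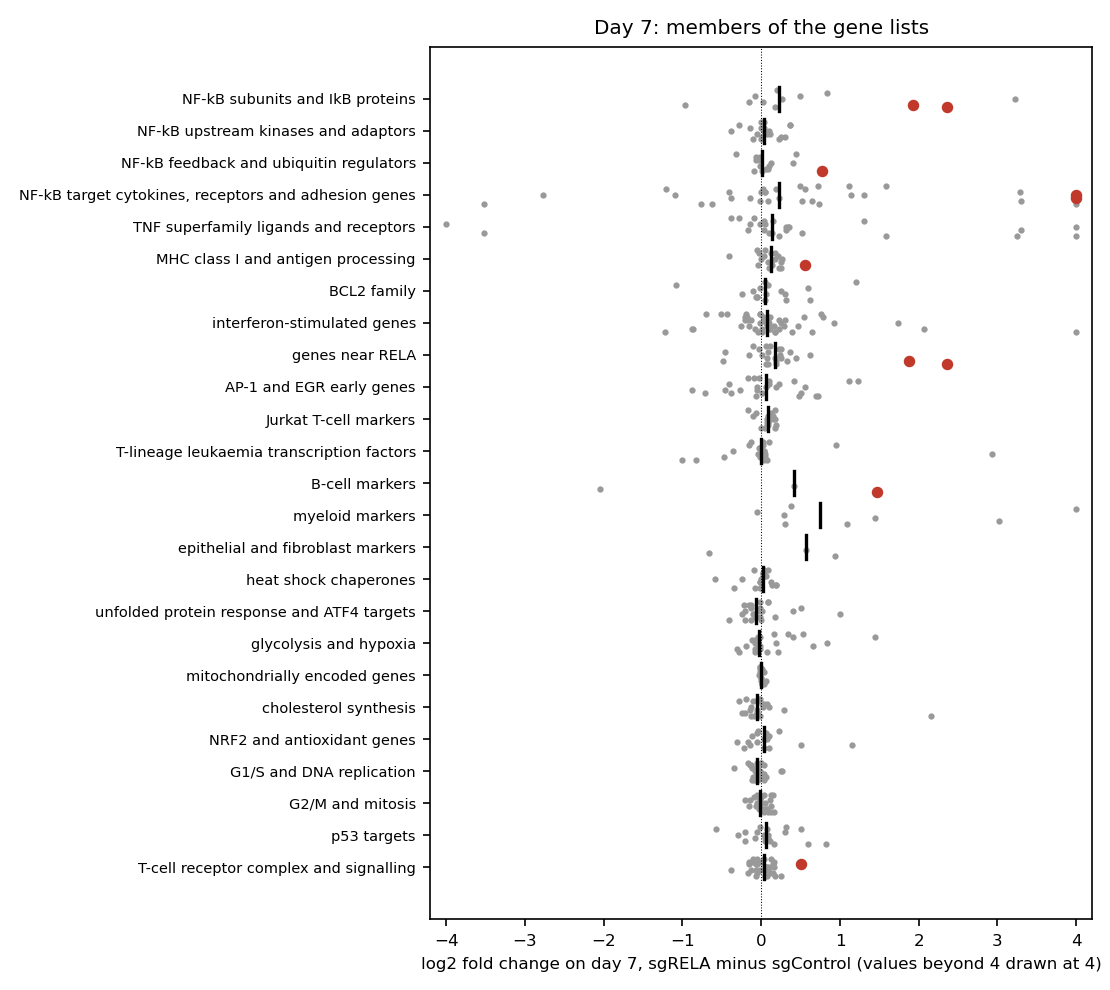
Log2 fold change on day 7 of each tested member of the 25 gene lists (horizontal axis, values beyond 4 drawn at 4); red circles are members called at an adjusted p under 0.05, grey points the others, and black bars the list medians. The called members sit in the NF-kB, MHC class I, near-RELA, B-cell and T-cell receptor lists, and the medians of lists with 15 or more members lie between -0.07 and 0.23.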

How the data were processed

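The authors deposited unnormalized read counts for 74628 gene identifiers in 1 table of the whole series. Per the submitters' processing notes, reads were handled with cutadapt 1.18 and STAR 2.7.9a on GRCh38; the counting tool, annotation, strand setting and treatment of reads with several matches are not given in the sources used here. The counts were used as deposited, and no column was left without a sample.

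Counts of the 2 libraries of each RNA were added. In edgeR 4.0.16 (R 4.3.3), 1 model over all 18 sums held a mean per guide and day (6 in all) and left 12 residual degrees of freedom. It used TMM factors, filterByExpr (minimum count 10), quasi-likelihood F tests and Benjamini-Hochberg adjustment over 27553 genes. Calls needed an adjusted p under 0.05, and standard errors are the fold change divided by the root of F. Alternatives were DESeq2 1.42.0, its size factors, no filter, each library set, only the sums of the days compared, a replicate block, sgControl replicate 2 from its first library, and each replicate left out. The method was tested on simulated data. Positions came from GENCODE v29 for 53777 identifiers, promoters and their motif search from RefSeq.

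Members and gene lists were chosen with earlier results of these data known. Named were RELA, every called gene, up to 5 genes per direction next to the threshold, called list members or else the 2 with the smallest p, up to 5 per direction called on days 5 and 6 alone, up to 3 per test between days, and genes within 100 kb of a called gene; other names are examples of list membership.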

Additional observations from a re-analysis of the deposited data

Results flagged for a closer look

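For RELA, the guide effect on day 7 differed from that on day 5 by -0.78 log2 units (unadjusted p of the single gene 0.000211 in edgeR). From that on day 6 it differed by -0.71 (unadjusted p = 0.000651). After adjustment over all genes neither passed. Day 7 was chosen with this weaker induction already known, so these p-values are no independent test. For LINC01882 the guide effect on day 7 differed from that on day 6 by -0.84 log2 units (adjusted p = 0.00363).

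A single library stood apart from the 5 others of its group in 2 of 44 searches over called genes, where chance gives about 1 in 20. LINC01882 was at 253 CPM in the first library of sgRELA replicate 2 and at 195 to 215 CPM in the other 5 libraries of sgRELA. CAMK1D was at 162 CPM in the second library of sgControl replicate 1 and at 90.1 to 117 CPM in the other 5 of sgControl; without that replicate its call was lost.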

How the results depend on the processing

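RELA and 11 other genes (LONRF1, RNPEP, CBARP, CBARP-DT, ENSG00000287526, LINC01882, EPHX1, CD79A, C3, OPTN and SHOX2) were called under all 14 alternatives, and the other 13 lost their call under at least 1; no called gene changed sign. DESeq2 called 53 genes (33 higher, 20 lower), among them all 25, and no filter gave 55 (34 and 21), sharing 24. The first library set alone gave 13 (10 and 3) and the second 17 with 4 lower, with fewer counts and no averaging over libraries. Leaving out a replicate gave 16 to 26 genes, 3 to 8 of them lower, with the fewest without sgRELA replicate 1 (16 and 3). For the change of the guide effect, DESeq2 called 4 genes from day 5 and 6 from day 6, no filter 9 and 16, and either library set 0 from day 6; leaving out a replicate gave 0 to 1 and 1 to 2. Called genes that belong to any list, each counted once, were 9 in the main analysis. They were 3 and 4 in the first and second library set and 5 to 8 without a replicate. The cause was not tested. The labels number the replicates, but the same numbers did not deviate together on day 7 (correlations of 0.0041, -0.0095 and 0.0047), and with the replicate block 24 genes were called, 22 of them shared.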
